A study of Mus musculus with 6 samples.

Results

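The 32 genes described here are nuclear genes that package, copy and transcribe mitochondrial DNA or control how much of the mitochondrial machinery a cell makes, Tfam among them. They were taken from a named list of such factors, and all 32 were among the 17872 genes of the deposited count table. The RNA-seq libraries came from BV2, a line of immortalised microglia of the mouse, with 3 libraries in each of 2 groups, and the comparison asks what knocking out Tfam does to the transcriptome of microglial cells. The first group carries the label Tfam-KO and the genotype Tfam knockout, made with CRISPR-Cas9, and the second carries the genotype WT. Both groups have the treatment label none, and a shared protocol gives continuous culture with puromycin at 2 µg/mL after the knockout, without saying whether WT cells were kept in it too. The labels do not say whether the knockout line is 1 clone or a pool, or whether each replicate was its own culture, so the p-values rest on a spread between libraries that may be technical.

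Mitochondrial DNA is a small circular genome present in many copies per cell and wrapped by TFAM into nucleoids. A single-subunit RNA polymerase, POLRMT, transcribes it together with TFAM and TFB2M, and a dedicated replisome of polymerase gamma, the Twinkle helicase and a mitochondrial single-stranded DNA-binding protein copies it. All these proteins are encoded in the nucleus, and many of their genes are known targets of nuclear respiratory factor 1 (NRF-1, gene Nrf1) and of the ETS-family factor GABP (genes Gabpa and Gabpb1), with coactivators of the PGC-1 family.

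Promoter sequence is shown for 7 of the genes because the binding letters of these regulators are one feature that many of the genes share and that played no part in choosing them. Each stretch is the 120 bases before the annotated start, 5′ to 3′ on the gene's strand, from RefSeq on GRCm38.p6, with matches to the ETS motif CCGGAAG, the NRF-1 motif GCGCANGCG and the cyclic AMP response element (CRE) TGACGTCA in capitals. Tfam is the targeted gene, Polrmt rose, Ssbp1 and Tk2 fell, Mgme1 rose and has no capitals in this stretch, and Mterf1a and Mterf1b are near-identical copies. Endog, which also fell, is not shown and has no capitals in its stretch. The 7 are examples, and the shares over all genes searched follow below them.
Tfam (chr10:71238045-71238164, minus strand): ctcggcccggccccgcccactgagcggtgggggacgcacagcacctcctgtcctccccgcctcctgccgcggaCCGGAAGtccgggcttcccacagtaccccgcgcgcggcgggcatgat
Polrmt (chr10:79746582-79746701, minus strand): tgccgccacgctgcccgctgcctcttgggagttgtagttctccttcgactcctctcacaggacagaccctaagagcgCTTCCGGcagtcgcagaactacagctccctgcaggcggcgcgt
Ssbp1 (chr6:40471348-40471467, plus strand): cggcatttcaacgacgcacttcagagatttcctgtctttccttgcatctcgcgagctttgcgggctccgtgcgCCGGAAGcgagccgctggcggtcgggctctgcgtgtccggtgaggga
Tk2 (chr8:104248559-104248678, minus strand): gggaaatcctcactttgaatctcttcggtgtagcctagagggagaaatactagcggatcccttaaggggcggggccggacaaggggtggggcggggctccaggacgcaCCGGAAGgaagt
Mgme1 (chr2:144270784-144270903, plus strand): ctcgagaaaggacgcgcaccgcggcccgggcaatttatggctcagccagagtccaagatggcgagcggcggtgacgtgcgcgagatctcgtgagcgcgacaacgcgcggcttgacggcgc
Mterf1a (chr5:3893934-3894053, minus strand): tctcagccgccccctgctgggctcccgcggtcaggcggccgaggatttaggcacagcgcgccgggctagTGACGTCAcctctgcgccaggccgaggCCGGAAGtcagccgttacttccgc
Mterf1b (chr5:4192247-4192366, plus strand): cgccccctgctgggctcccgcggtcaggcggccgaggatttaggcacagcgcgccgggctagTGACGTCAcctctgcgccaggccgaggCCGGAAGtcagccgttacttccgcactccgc

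RefSeq promoter entries covered 26 of the 32 genes, in windows of 300 bases, 250 before the start and 50 after it, read on both strands. The ETS letters stood in 12 of these 26 genes, 46.2% (95% Wilson interval 28.8 to 64.5%), against 20.2% of 9716 tested genes and 9.93% of 27025 genes with such an entry. The NRF-1 letters stood in 6 of 26, 23.1% (95% Wilson interval 11.03 to 42.1%), against 15.1% of tested genes. That interval holds the share of tested genes, and in the 150 bases before the start the order turned, with 7.69% of the 26 against 10.5% of tested genes. In the full window at least one of these motifs stood in 17 of 26, 65.4%, against 31.7% of tested genes. The CRE stood in 3 of 26, against 3.56% of tested genes. The letters AAGATGGC of the YY1 motif stood in 2 of 26, against 5.36%, and the E-box CACGTG in 1 of 26, against 11.8%. These are counts of letters and do not show binding. The promoter windows of Mterf1a and Mterf1b share an identical run of 261 bases, which holds the CRE and the ETS match of both, so these 2 genes are 1 observation rather than 2. The search covered 8 genes that rose, 3 that fell and 14 that were not called. ETS letters were found in 1 of the 8 (Polrmt), in 2 of the 3 (Ssbp1 and Tk2) and in 9 of the 14, Tfam, Twnk, Polg, Polg2, Tefm and Gabpa among them. NRF-1 letters were found in 3 of the 8 (Polrmt, Lig3 and Gabpb1), in 0 of the 3 and in 3 of the 14 (Tfb2m, Exog and Esrra). Mterf3, Top1mt, Rnaseh1, Atad3a, Rrm2b and Ppargc1b were not searched.

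Libraries held 13850691 to 20889786 counts in the Tfam-KO group and 14642397 to 28418133 counts in the WT group. Levels are CPM, counts per 1e+06 counts after TMM scaling of the libraries, with SDs over 3 libraries. Signed values marked as log2 are fold changes of Tfam-KO over WT. Of 13403 genes tested with edgeR's quasi-likelihood test, 5926 were called at a Benjamini-Hochberg adjusted p below 0.05, which is 44.2%, and 52.9% had groups that did not overlap in CPM. The first principal component held 67.5% of the variance and separated the groups. With library totals in place of TMM factors, the share of calls that were higher in Tfam-KO was 61.8%, against 48.2%. Transcripts from mitochondrial DNA made up 1.37 to 1.42% of counts in the Tfam-KO libraries and 3.52 to 4.31% in the WT libraries. Of 16 microglia and macrophage markers listed, 14 were in the table, and Itgam and P2ry12 were not. Csf1r, Cd68, Adgre1 and Ptprc were among those abundant in both groups. Of the 12 tested, 9 were called lower and 1 higher, Csf1r at log2 -1.46 and Adgre1 at log2 0.61, and their part in the results was not tested. Cx3cr1 was at 0.794 CPM in Tfam-KO and 1.82 CPM in WT libraries, and Tmem119 and Sall1 were under 1 CPM in both. Summed over the list, these markers ran from 3211 to 3653 CPM in Tfam-KO and from 4498 to 4995 CPM in WT libraries. Each list of markers of other cell types summed to at most 14.2 CPM in Tfam-KO and 25.5 CPM in WT libraries, the highest being the oligodendrocyte list, mostly Mbp.

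Tfam, whose protein coats and bends mitochondrial DNA and activates its promoters, had 868, 743 and 619 counts in the Tfam-KO libraries and 1098, 591 and 524 counts in the WT libraries. Scaled for depth, these were 41.0, 42.7 and 43.2 CPM in the Tfam-KO libraries, against 39.0, 38.5 and 37.1 CPM in the WT libraries. The ranges did not overlap, with the Tfam-KO libraries higher, and the log2 difference of 0.14 ± 0.0869 (SE; 95% interval -0.04 to 0.33) was not called (edgeR adjusted p = 0.193). The Tfam mRNA level thus goes against what a loss of the transcript would give, and the libraries are named here as labelled. A gene-level count cannot show a small change in the coding sequence. Tfam was called higher in Tfam-KO when libraries were scaled by their totals (log2 0.24, edgeR adjusted p = 0.0403) and in limma on the authors' log2 table (log2 0.24, adjusted p = 0.0349). Offsets for GC content and the length of the longest transcript gave log2 0.05 (edgeR adjusted p = 0.618). No setting gave a lower Tfam level in the Tfam-KO libraries.

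Of the 32 genes, 31 had enough counts to be tested, and 13 of these were called, which is 41.9% against the 44.2% of all tested genes. Tfb1m, Mgme1, Primpol, Lig3, Pprc1, Nrf1, Gabpb1, Rrm2b, Polrmt and Mterf3 rose, 10 of 31 beside the 21.3% of all tested genes called higher. Ssbp1, Endog and Tk2 fell, 3 of 31 beside the 22.9% called lower. The share called lay near that of all genes, and log2 values ran from -0.76 (Ssbp1) to 0.58 (Mgme1), and 0 of 31 reached 1 in either direction, against 9.15% of all tested genes. The median size of the log2 change was 0.159, against 0.303 over all tested genes. Over all tested genes between the lowest and highest mean CPM of the set it was 0.290. That span is wide, and levels were not matched gene by gene. The median signed change was 0.09, against 0.00124 over all tested genes. Together the 32 genes held 1294 to 1329 CPM in Tfam-KO and 1223 to 1253 CPM in WT libraries. Groups did not overlap for 15 of 31, the 13 called genes plus Tfam and Atad3a, beside the background of 52.9%. In a bulk sample, less RNA per cell and fewer cells with that RNA cannot be told apart.

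**Figure D1:**
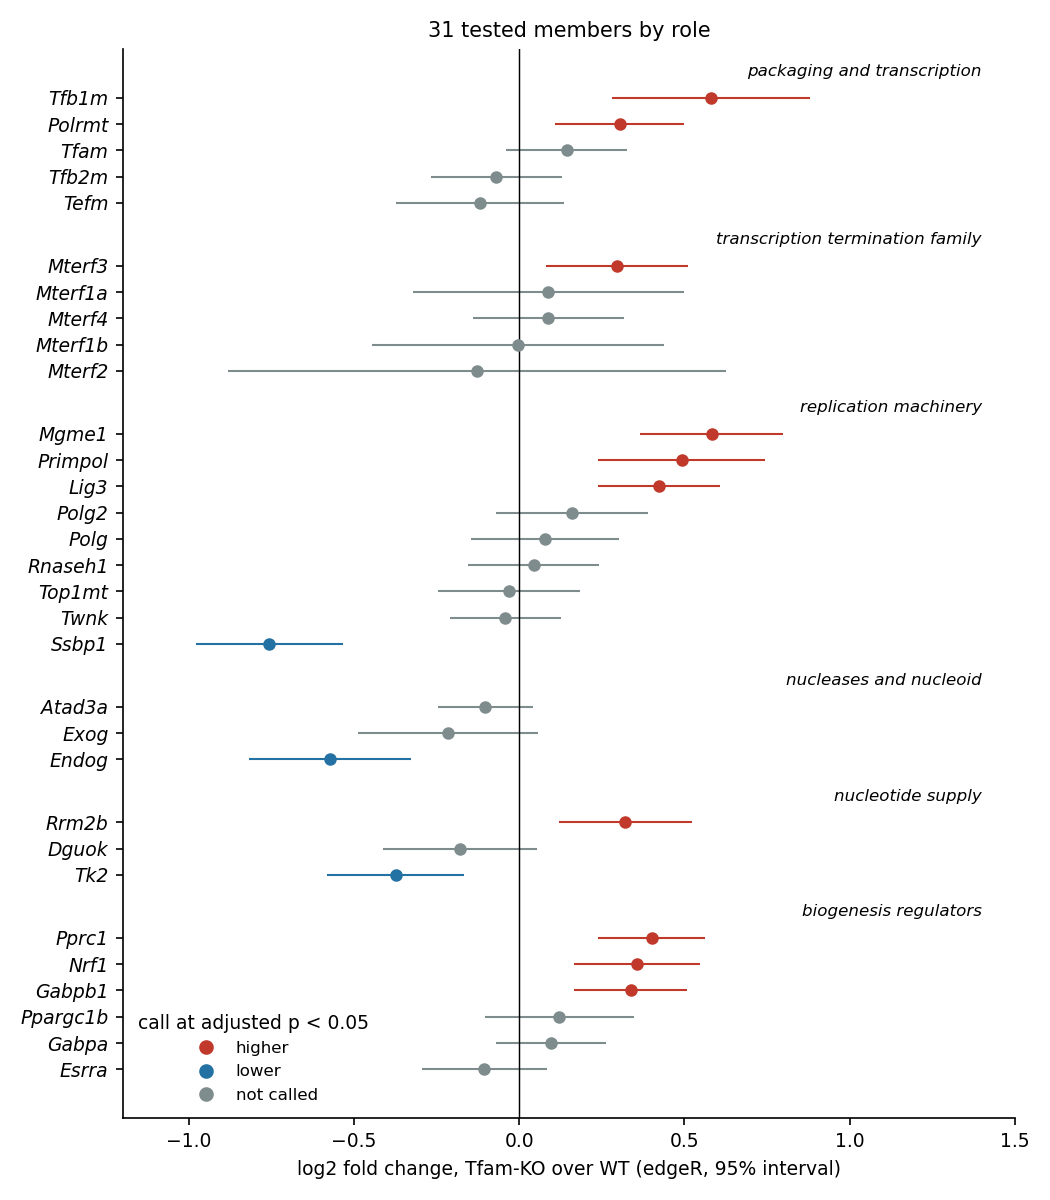
Log2 fold change of Tfam-KO over WT for the 31 tested genes, grouped by role, with 95% intervals from edgeR; colours mark calls at an adjusted p below 0.05. The values run from -0.76 for Ssbp1 to 0.58 for Mgme1, with 10 genes higher, 3 lower and 18 not called.

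In the transcription machinery, the polymerase and one of the methyltransferase-related factors rose, and the rest were not called. Polrmt, the mitochondrial RNA polymerase, was at 42.6, 40.5 and 41.8 CPM in Tfam-KO and at 35.2, 35.0 and 30.7 CPM in WT libraries. All 3 Tfam-KO libraries were above all 3 WT libraries (log2 0.30 ± 0.0927, edgeR adjusted p = 0.0131), but without WT library 3, the lowest, the call was lost (adjusted p = 0.0706). Tfb1m, which methylates the small ribosomal RNA of mitochondria, had 346, 236 and 237 counts in Tfam-KO and 327, 160 and 123 counts in WT libraries, or 16.3, 13.6 and 16.5 CPM in Tfam-KO against 11.6, 10.4 and 8.70 CPM in WT. Its groups did not overlap, and it rose by log2 0.58 ± 0.142 (edgeR adjusted p = 0.00312). Tfb2m, its relative that opens promoter DNA for POLRMT, averaged 42.6 ± 3.18 CPM in Tfam-KO and 44.6 ± 3.27 CPM in WT libraries (log2 -0.07, adjusted p = 0.588). Tefm, the elongation factor of POLRMT, averaged 24.7 ± 3.84 CPM in Tfam-KO and 27.0 ± 2.80 CPM in WT libraries (log2 -0.12, edgeR adjusted p = 0.45). Tfb2m is 99.3% identical over 1187 bases to the gene model Gm1818, which had 64 to 89 counts in Tfam-KO and 56 to 126 counts in WT libraries, so its level is uncertain where reads map to both.

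Among the MTERF family, helical-repeat proteins that bind mitochondrial DNA or RNA, only Mterf3 of 5 was called. Mterf3, known to lower mitochondrial transcription and to act in ribosome assembly, was at 53.4, 50.2 and 50.7 CPM in Tfam-KO and at 40.6, 48.6 and 36.5 CPM in WT libraries. The groups did not overlap, and it rose by log2 0.30 ± 0.102 (edgeR adjusted p = 0.0253). Its call was lost in 4 of 17 alternatives, more than any other gene of the set: the adjusted p was 0.0648 without Tfam-KO library 1, 0.054 without Tfam-KO library 3, 0.0512 without WT library 1 and 0.124 without WT library 3. Mterf4, which guides a ribosomal RNA methyltransferase, averaged 22.8 ± 1.22 CPM in Tfam-KO and 21.6 ± 2.06 CPM in WT libraries and was not called. Mterf1a and Mterf1b, mouse copies of the termination factor that binds the leucine tRNA gene, are 98.6% identical over 1368 bases, so reads cannot be assigned to one of them with certainty. Mterf1a averaged 5.66 ± 0.468 CPM in Tfam-KO and 5.26 ± 0.961 CPM in WT, and Mterf1b 5.10 ± 0.944 CPM in Tfam-KO and 5.21 ± 0.840 CPM in WT. Mterf2 had 13 to 40 counts in Tfam-KO and 27 to 47 counts in WT libraries, and its 95% interval, log2 -0.88 to 0.62, was the widest of the set.

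In the replication machinery, Ssbp1 fell, Mgme1, Primpol and Lig3 rose, and 5 of 9 genes were not called. Ssbp1 encodes the single-stranded DNA-binding protein that coats the displaced strand during replication, and it had 933, 644 and 509 counts in Tfam-KO and 1674, 1151 and 895 counts in WT libraries. Its level was 44.1, 37.0 and 35.5 CPM in Tfam-KO, against 59.5, 75.0 and 63.3 CPM in WT. The highest Tfam-KO library was below the lowest WT library, the Tfam-KO mean was 58.9% of the WT mean, and the log2 change of -0.76 ± 0.105 had the smallest adjusted p of the set (edgeR, 1.77e-05). Ssbp1 is 97.8% identical over 447 bases to the gene model Gm12115, which had 10 to 12 counts in Tfam-KO and 13 to 23 counts in WT libraries. Mgme1, the exonuclease that trims the ends of newly made strands, was at 36.2, 35.0 and 30.5 CPM in Tfam-KO and at 24.0, 22.1 and 21.7 CPM in WT libraries. The groups were well apart, and Mgme1 rose by log2 0.58 ± 0.102 (edgeR adjusted p = 0.000194), to 150% of its WT level.

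Primpol, a primase-polymerase that restarts stalled forks in the nucleus and in mitochondria, was at 31.96, 45.6 and 38.2 CPM in Tfam-KO and at 27.0, 25.7 and 29.6 CPM in WT libraries. The Tfam-KO libraries varied widely but stayed above the WT ones (log2 0.49 ± 0.12, edgeR adjusted p = 0.00296). Lig3, the only DNA ligase of mitochondria, which also serves nuclear repair, was at 65.5, 74.1 and 66.8 CPM in Tfam-KO and at 55.1, 46.7 and 51.9 CPM in WT libraries. It rose by log2 0.42 ± 0.0876 with no overlap (edgeR adjusted p = 0.000835). The core polymerase and helicase were not called. Polg, the catalytic subunit of polymerase gamma, averaged 34.7 ± 1.22 CPM in Tfam-KO and 32.8 ± 4.44 CPM in WT libraries, and Polg2, its accessory subunit, 22.1 ± 0.993 CPM in Tfam-KO and 19.7 ± 1.79 CPM in WT. Twnk, the Twinkle helicase, averaged 65.8 ± 2.20 CPM in Tfam-KO and 67.6 ± 4.32 CPM in WT libraries, and its 95% interval was log2 -0.21 to 0.13. Top1mt, the mitochondrial topoisomerase, had log2 -0.03 and Rnaseh1, which removes RNA primers, log2 0.04, and neither was called.

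Of the 3 nuclease and nucleoid genes, Endog fell and the other two were not called. Endog, an endonuclease of the intermembrane space that can also act on nuclear DNA in dying cells, was at 20.5, 20.6 and 16.7 CPM in Tfam-KO and at 26.6, 27.4 and 32.6 CPM in WT libraries. Its ranges did not overlap, and the log2 change was -0.57 ± 0.116 (edgeR adjusted p = 0.000667), which left 66.7% of the WT level. Exog, a related exonuclease, averaged 12.5 ± 1.29 CPM in Tfam-KO and 14.7 ± 1.05 CPM in WT libraries (log2 -0.22, edgeR adjusted p = 0.19). Atad3a, a membrane ATPase linked to nucleoid organisation, averaged 131 ± 4.15 CPM in Tfam-KO and 141 ± 3.02 CPM in WT libraries. Its ranges did not overlap, but the log2 change of -0.10 was not called (adjusted p = 0.243). Atad3a is 96.4% identical over 1773 bases to the gene model Gm4740, which is not in the count table. Its level is uncertain where reads map to both.

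Of the 3 genes for mitochondrial nucleotide supply, Rrm2b rose, Tk2 fell and Dguok was not called. Tk2, the mitochondrial thymidine kinase, was at 38.9, 34.5 and 42.3 CPM in Tfam-KO and at 47.7, 48.0 and 54.4 CPM in WT libraries. It fell to 77.1% of the WT level with no overlap (log2 -0.37 ± 0.098, edgeR adjusted p = 0.00491). Rrm2b, the p53-inducible ribonucleotide reductase subunit that supplies nucleotides outside S phase, was at 40.3, 36.8 and 37.5 CPM in Tfam-KO and at 33.0, 29.9 and 28.8 CPM in WT libraries. It rose by log2 0.32 ± 0.0953 (edgeR adjusted p = 0.0114), a call lost without WT library 3 (adjusted p = 0.0539) and with offsets for GC content and transcript length (adjusted p = 0.0513). Rrm2b is 96.1% identical over 1051 bases to the gene model Gm8616, also not in the count table, with the same limit on its level. Dguok, the mitochondrial deoxyguanosine kinase, averaged 21.8 CPM in Tfam-KO and 24.7 CPM in WT libraries and was not called (log2 -0.18, edgeR adjusted p = 0.2).

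Of the 7 biogenesis regulators, 3 rose, 0 fell, 3 were not called and 1 was too low to test. Pprc1, the serum-responsive member of the PGC-1 coactivator family, was at 116, 131 and 116 CPM in Tfam-KO and at 96.2, 90.5 and 87.3 CPM in WT libraries. The groups did not overlap (log2 0.40 ± 0.0767, edgeR adjusted p = 0.000413). Nrf1, which encodes NRF-1, was at 69.9, 79.9 and 67.2 CPM in Tfam-KO and at 62.2, 52.99 and 53.9 CPM in WT libraries, a rise of log2 0.36 ± 0.0906 (edgeR adjusted p = 0.00397). Gabpb1, the subunit that gives GABP its activation domain, was at 60.7, 61.6 and 62.4 CPM in Tfam-KO and at 51.4, 47.6 and 46.9 CPM in WT libraries. It rose by log2 0.34 ± 0.0809 (edgeR adjusted p = 0.00267). Gabpa, the DNA-binding subunit of the same factor, averaged 91.9 CPM in Tfam-KO and 85.9 CPM in WT libraries and was not called (log2 0.10, adjusted p = 0.353). Ppargc1b (PGC-1 beta) at log2 0.12 and Esrra (the estrogen-related receptor alpha, a partner of PGC-1 proteins) at log2 -0.11 were not called either. Ppargc1a (PGC-1 alpha) had 7, 3 and 5 counts in Tfam-KO and 6, 4 and 2 counts in WT libraries, so a change in it was not detectable at this depth.

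**Figure D2:**
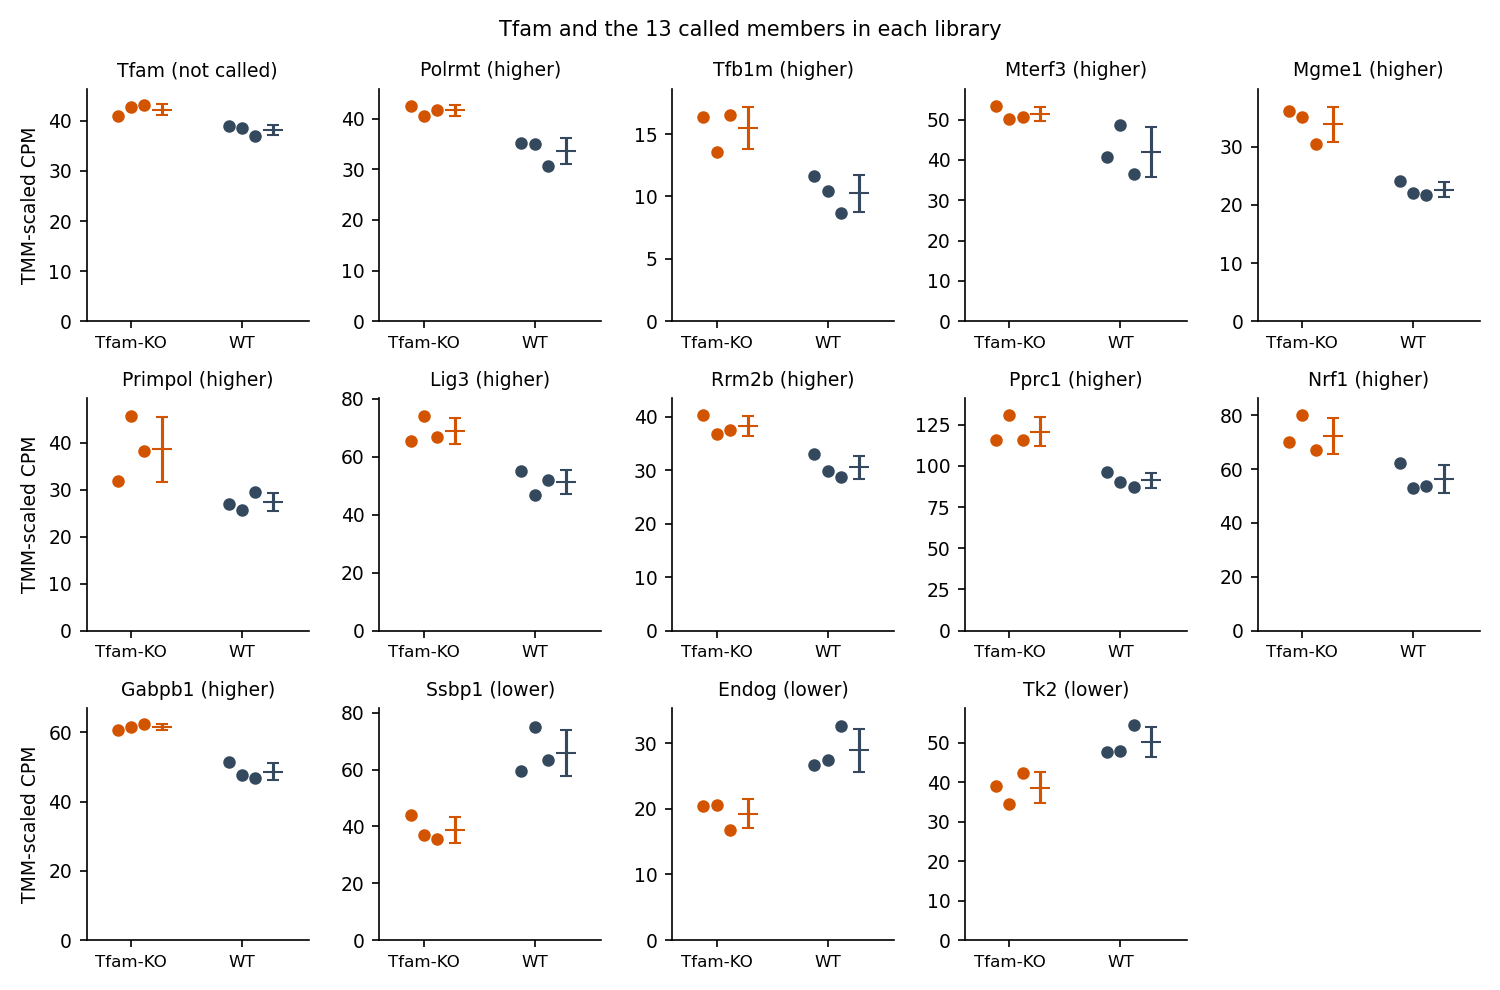
CPM of Tfam and the 13 called genes in each of the 3 Tfam-KO and 3 WT libraries, with the group mean and SD beside the points. In all 14 panels the groups do not overlap, but all genes except Tfam were picked for being called, and 52.9% of all tested genes also had no overlap. Ssbp1, Endog and Tk2 lie lower in Tfam-KO, and Tfam is not called.

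The 18 genes that were not called had log2 changes of -0.22 to 0.16, and the outer bounds of their 95% intervals were -0.88 and 0.62. Both bounds were those of Mterf2, and the other intervals were narrower, such as log2 -0.21 to 0.13 for Twnk. A missed call does not show an unchanged level, but for each gene larger changes lie outside its own interval. Within groups, levels were reproducible: the median coefficient of variation was 6.72% over the Tfam-KO libraries and 7.83% over the WT libraries, and the largest, 43.0%, was that of Mterf2 in Tfam-KO.

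Levels of different genes were set side by side per kilobase of exon. Atad3a was the highest at 34.8 ± 1.10 in Tfam-KO and 37.4 ± 0.803 in WT, in CPM per kilobase, followed in WT by Endog at 18.1 ± 2.06 in Tfam-KO and 27.2 ± 3.02 in WT. Below these, Tefm, Twnk, Tfb2m, Rnaseh1, Gabpa, Pprc1, Tk2, Esrra and Top1mt ran from 17.2 down to 12.5 CPM per kilobase in WT, with each neighbour within the sum of the SDs, and the next step was to Tfam. Tfam was at 9.53 ± 0.260 in Tfam-KO and 8.61 ± 0.229 in WT. The lowest were Mterf1a, Mterf2 and Ppargc1a, the last at 0.0431 in Tfam-KO and 0.0311 in WT. Of the 31 neighbouring pairs in the WT order, 24 were closer than the sum of their SDs. Ssbp1 took rank 23 in Tfam-KO and rank 14 in WT, and Pprc1 rank 2 in Tfam-KO and rank 8 in WT. The order depends on the length used: with the longest transcript in place of all annotated exons, 15 of 32 genes stayed within 3 ranks, and Mterf3 was at 28.3 in place of 8.56 CPM per kilobase in WT.

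**Figure D3:**
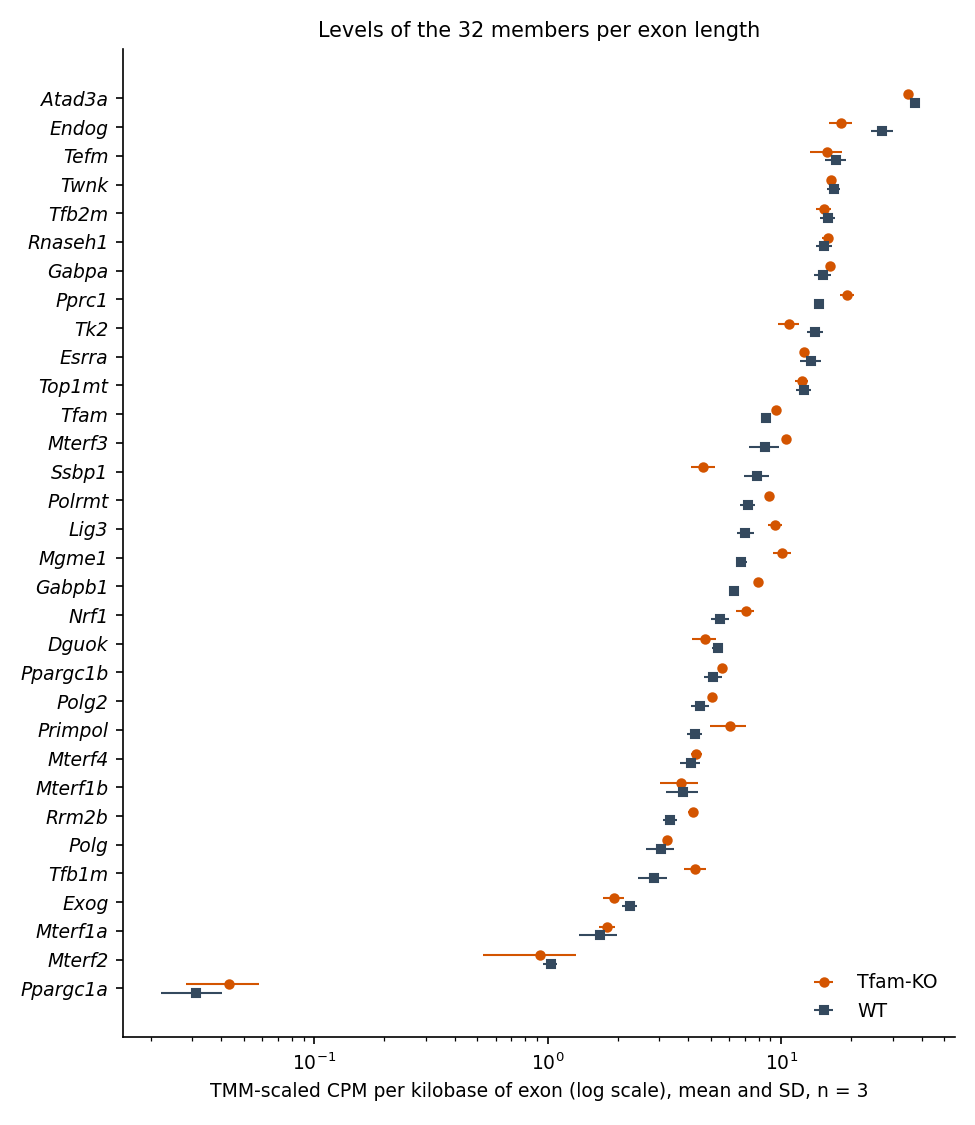
CPM per kilobase of exon for the 32 genes on a log axis, ordered by the WT level, as mean and SD of 3 libraries per group. Atad3a is highest at 34.8 in Tfam-KO and 37.4 in WT, and Ppargc1a lowest at 0.0431 in Tfam-KO and 0.0311 in WT.

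Ratios of counts between functional partners were taken within each library, since these do not depend on how libraries are scaled. With 3 libraries against 3, the exact two-sided permutation test cannot go below p = 0.1, and after adjustment over 8 ratios the smallest p was 0.16, so none could pass. Tfb1m over Tfb2m was 0.419, 0.309 and 0.367 in Tfam-KO and 0.245, 0.254 and 0.193 in WT libraries, without overlap and 1.58 times as high on average. Polrmt over Tefm was 1.48, 1.91 and 1.74 in Tfam-KO and 1.32, 1.44 and 1.03 in WT libraries, without overlap. Twnk over Polrmt, helicase against RNA polymerase, was 1.49, 1.64 and 1.62 in Tfam-KO and 2.05, 1.82 and 2.18 in WT libraries, a log2 difference of -0.35. Groups also did not overlap for Nrf1 over Gabpa (log2 difference 0.26) and for Polrmt over Tfam (0.16). Each ratio without overlap holds Tfb1m, Polrmt or Nrf1, which were called higher on their own. Several share Polrmt, so these ratios are not separate observations, and no share over other gene pairs was computed. They overlapped for Polg over Polg2, the subunits of the replicative polymerase, at 1.53 to 1.63 in Tfam-KO and 1.49 to 1.86 in WT, and for Dguok over Tk2 and Ppargc1a over Ppargc1b.

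**Figure D4:**
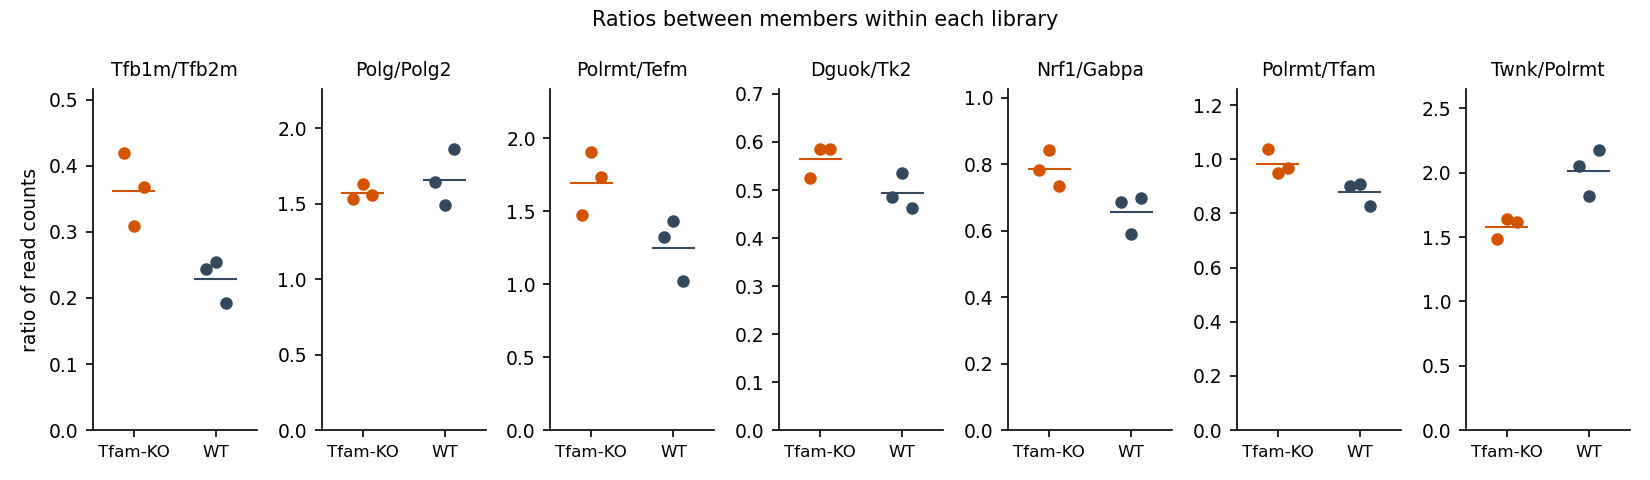
Ratios of read counts between 7 pairs of the genes in each Tfam-KO and WT library; points are libraries and lines geometric means. The groups do not overlap for 5 of the 7, among them Tfb1m over Tfb2m at 0.309 to 0.419 in Tfam-KO and 0.193 to 0.254 in WT. Each of these 5 holds Tfb1m, Polrmt or Nrf1, which were called higher on their own. Ppargc1a over Ppargc1b, where the groups overlap, is not drawn.

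Counts of the 13 mitochondrial mRNAs were also set against the counts of the factors that transcribe them. Per Tfam count there were 307, 290 and 278 mitochondrial mRNA counts in Tfam-KO and 870, 1139 and 937 in WT libraries, a fold of 0.299 (exact permutation p = 0.1, the smallest the design allows). Per Polrmt count the means were 296 ± 9.41 in Tfam-KO and 1116 ± 145 in WT libraries, and per Tefm count 506 ± 73.3 in Tfam-KO and 1413 ± 340 in WT libraries (SD, n = 3 each). Per Tfb2m count they were 291 ± 29.1 in Tfam-KO and 851 ± 190 in WT libraries. Most of the mRNA counts were mt-Co1, on average 8826 of 12322 CPM in Tfam-KO and 23332 of 37529 CPM in WT libraries. It fell least of the tested mRNAs (log2 -1.40), so these ratios follow it more than the other mRNAs. The 13 were counted very unequally, and the reason was not tested. For example, mt-Co2 was at 51.4 CPM in Tfam-KO and 176 CPM in WT libraries. The lowest, mt-Atp8, was at 0.261 CPM in Tfam-KO and 0.838 CPM in WT libraries. None of these factors was called lower, while 12 of 12 tested mitochondrial mRNAs were called lower in Tfam-KO, at a median log2 of -1.89.

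The library kit does not mark strand, so reads in exons shared with a gene on the other strand cannot be told apart. Shared exon bases were 1826 of 7284 for Lig3 with Rffl (log2 0.45, edgeR adjusted p = 8.97e-05, called higher, like Lig3). For Primpol they were 1111 of 6411, mostly with the centromere gene Cenpu, which was also called higher (log2 0.84, adjusted p = 0.000522). For Endog they were 379 of 1063 with Spout1, which was called higher (log2 0.27, adjusted p = 0.0212), opposite to Endog. Polg shares 921 bases with Fanci (log2 0.47, called higher) and Mterf4 shares 1855 with Sned1, which was at 1.83 CPM in Tfam-KO and 1.01 CPM in WT libraries. Rrm2b shares 734 bases with Gm49085 (log2 1.36, called higher, at 1.02 CPM in Tfam-KO and 0.431 CPM in WT libraries) and Polg2 shares 132 with Milr1 (log2 0.42, called higher), while Tiam2, Tmem263 and Trmt112, which share bases with Tfb1m, Mterf2 and Esrra, were not called. How far these partners contribute to the values of the genes they overlap was not tested. Ssbp1, Tk2, Polrmt, Nrf1 and Tfam share no exon bases with another annotated gene.

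For 6 of the genes described here, a protein-coding gene on the other strand starts within 1000 bases of their own start. Mgme1 (log2 0.58) lies head to head with Snx5, a sorting nexin, which was at 254 ± 11.9 CPM in Tfam-KO and 517 ± 6.54 CPM in WT libraries (log2 -1.03, edgeR adjusted p = 9.08e-09). Pprc1 (log2 0.40) lies beside Ldb1, a LIM-domain cofactor, called lower at log2 -0.48. Gabpa (log2 0.10, not called) lies beside Atp5j, a subunit of the ATP synthase, at 97.0 ± 11.7 CPM in Tfam-KO and 171 ± 28.5 CPM in WT libraries (log2 -0.81, adjusted p = 1.34e-05). Ptdss1 beside Mterf3, Cnst beside Tfb2m and Mrpl43 beside Twnk were not called. Of these pairs, Mgme1 shares 206 exon bases with Snx5, Pprc1 177 with Ldb1, Gabpa 397 with Atp5j and Twnk 507 with Mrpl43, where reads of the pair cannot be told apart. Mterf3 also shares exon bases with Ptdss1. Differences within pairs were not tested.

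**Figure D5:**
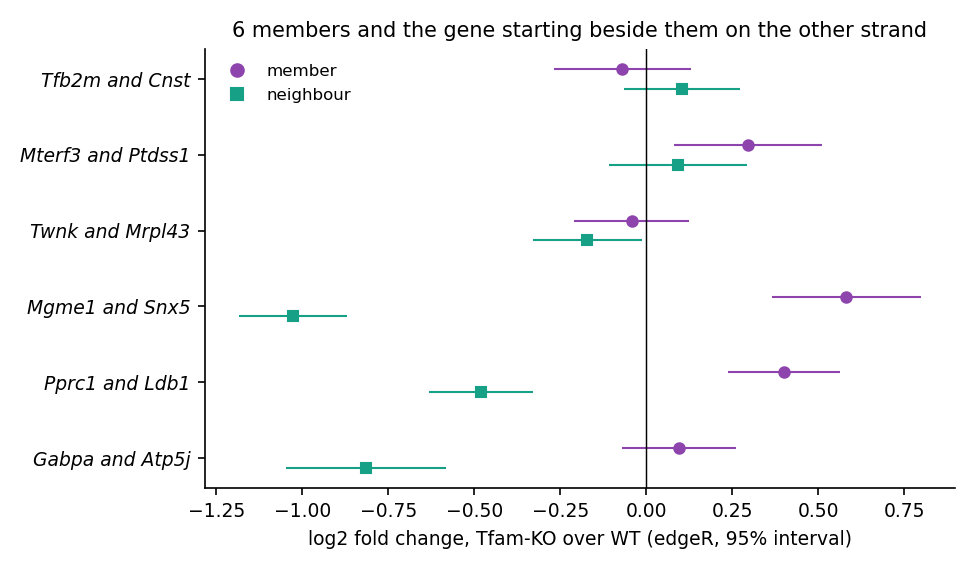
Log2 fold change of Tfam-KO over WT with 95% intervals (edgeR) for 6 genes of the set and the gene that starts beside each on the other strand. Mgme1 and Pprc1 are higher while Snx5 (-1.03) and Ldb1 (-0.48) are lower, and Atp5j (-0.81) is lower beside an uncalled Gabpa.

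Other genes of the pathways were counted on separate lists. Of 37 other genes for mitochondrial DNA maintenance, covering repair, nucleotide carriers and nucleoid proteins, 14 were called higher and 8 lower, which is 59.5% called against 44.2% of all tested genes, with a median log2 of 0.09. Cmpk2, an interferon-inducible mitochondrial nucleotide kinase, was at 29.7 ± 2.38 CPM in Tfam-KO and 12.8 ± 1.63 CPM in WT libraries (log2 1.22). Rrm2 (0.84), the S phase ribonucleotide reductase subunit, Ogg1 (0.65), which removes oxidised guanine, and Slc25a33 (0.65), a pyrimidine nucleotide carrier, were the next largest increases in log2. Clpx (-0.58), the chaperone subunit of a mitochondrial protease, Mpv17 (-0.55), an inner membrane protein needed for mitochondrial DNA upkeep, Slc25a36 (-0.53), a pyrimidine nucleotide carrier, and Phb (-0.50), a prohibitin, were the largest decreases. The list thus held 1 pyrimidine carrier of this family that rose and 1 that fell.

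Of 28 tested other regulators of mitochondrial biogenesis, 8 were called higher and 4 lower, 42.9% against 44.2% of all tested genes, with a median log2 of 0.12. Myc, a growth-promoting transcription factor, was at 16.6 ± 1.69 CPM in Tfam-KO and 5.01 ± 0.206 CPM in WT libraries (log2 1.73), followed by Perm1 (0.68), Esrrg (0.53) and Prkaa2 (0.50), the last a catalytic subunit of AMP-activated kinase. Mef2c (-0.40), Ppard (-0.32), Foxo3 (-0.28) and Yy1 (-0.19) fell, and only Mef2c of these 4 kept its call in every alternative analysis, the highest adjusted p being 0.0686 for Ppard, 0.205 for Foxo3 and 0.357 for Yy1.

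Cell cycle genes moved with the groups. Of 19 S phase and mitosis genes 18 were called higher, where 21.3% of all tested genes were, and 0 lower, and their summed level was 3003 to 3178 CPM in Tfam-KO and 1956 to 2186 CPM in WT libraries. The largest log2 increases were those of Ccna2 (1.21), Aurka (0.99), Top2a (0.97) and Ccnb1 (0.93). Lig3, Primpol and Rrm2b also serve nuclear DNA, and the part of the cell cycle in their values was not tested. Of 13 p53 target genes, a list that bears on Rrm2b, 5 were called higher and 3 lower, beside the 21.3% and 22.9% of all tested genes. Gadd45a (1.76), Fas (1.46), Aen (0.97) and Mdm2 (0.33) were the largest log2 increases, and Cdkn1a (-1.27), Bax (-0.38) and Pmaip1 (-0.24) fell. Pmaip1 lost its call in 7 of 17 alternatives (adjusted p up to 0.231), and Zmat3, called higher at log2 0.32, in 8 (adjusted p up to 0.156).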

How the data were processed

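Poly(A) RNA from 3 Tfam-KO and 3 WT libraries of BV2 cells was sequenced after preparation with a NEBNext Ultra kit, per the labels. The submitters' processing notes name bcl2fastq 2.17, HISAT2 2.1.0, SAMtools 1.9, featureCounts 2.0.0 and GRCm39. The sources used here do not say how multimapping reads were handled. The deposited table holds raw read counts per gene for 17872 genes; the authors' second table holds log2 values, which from the values equal log2 of depth-scaled counts plus 8. No column was left unmapped.

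Tests on counts used edgeR 4.0.16 (R 4.3.3) with filterByExpr (TMM, quasi-likelihood F test, Benjamini-Hochberg over all 13403 tested genes, called below 0.05); 4469 genes were left untested. Each SE is the log2 fold change divided by the root of F. Ratios had exact permutation tests. The edgeR step was also run on simulated counts with a common dispersion and far fewer changed genes than here. That run does not check the calls in these data. Alternatives were DESeq2 1.42.0, limma 3.58.1 (voom, and trend on the log2 table), other scalings and filters, length and GC offsets, a replicate block and each library left out.

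Exons and copies (BLAST 2.17.0, at least 95% identity over 400 bases) came from GENCODE M21 on GRCm38, and promoters from RefSeq GRCm38.p6, an older build than the authors'. The genes and lists were chosen with earlier results of these data known. All 32 genes are named; from other lists, up to 4 called genes per direction with the largest change and at least 1 CPM. Overlapping and neighbouring genes were chosen by position; short overlaps are not all named, and 1 neighbour is not reported here.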

Additional observations from a re-analysis of the deposited data

How the results depend on the processing

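The 3 decreases were called in all 17 alternatives. The number of genes called higher was 10, with 11 under library totals or on the authors' log2 table, 9 with length and GC offsets and 7 to 10 with a library left out; the low of 7 was without WT library 3. Tfam reached log2 0.24 with library totals and on the authors' log2 table, both called; with a library left out it ran from 0.13 to 0.17. The median log2 value over all genes shifted by 0.099 with library totals. The count of other biogenesis regulators called lower, 4, was 2 with library totals, on the authors' log2 table and with offsets from the median transcript length, an alternative chosen after seeing the data, and 2 to 4 with a library left out. The share of genes with NRF-1 letters was 23.1%, against 15.1% of tested genes, and 7.69% in the 150 bases before the start, against 10.5% of tested genes; the matches lost there (Gabpb1, Lig3, Tfb2m and Polrmt) lie outside that window or across its edge. All log2 directions of called genes held in every alternative. Counts limit Ppargc1a and Mterf2, and the ratio tests cannot pass with 3 libraries a group.

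With the replicate number as a block, the same 13 genes were called, 10 higher and 3 lower, Tfam was at log2 0.14 (edgeR adjusted p = 0.266), and 5255 genes were called in all. Same-numbered libraries did not deviate together (correlations -0.104, -0.114 and 0.0395), so the numbers were not taken as pairs.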
